A study of Mus musculus with 1 sample.

Results

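Among the 27998 genes listed for a single-cell RNA sequencing library of mouse testis cells, 8 genes for transcription factors of undifferentiated spermatogonia were picked by symbol, namely Zbtb16, Taf4b, Sox3, Sohlh1, Sohlh2, Neurog3, Eomes and T. All 8 had UMIs (unique molecular identifiers, which count captured transcripts) in germ cells. The library was made from Zscan2+/+ C57BL/6 mice at postnatal day 8, the wild type controls of a study of Zscan2 loss. Testis cells of 3 mice were selected with THY1 beads, which enrich undifferentiated spermatogonia, and equal numbers of selected cells per mouse were pooled. Some unselected testis cells were also added before loading, and equal numbers per mouse are not stated for these. A library of the null genotype was not analysed here. Because the mice share 1 library there are no replicates and no test was made, and every interval below is an exact 95% interval that covers counting error only.

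Spermatogonia are the mitotic germ cells of the testis. A minority of the undifferentiated ones act as stem cells, others are progenitors that amplify before they commit, and retinoic acid then induces Stra8 and Kit as differentiation starts. Zbtb16 encodes PLZF, a zinc finger repressor needed to keep the stem cell pool. Taf4b encodes a gonad-rich variant of a subunit of TFIID, the complex that recognises core promoters, and Sox3 encodes an HMG-box factor found in progenitors. Sohlh1 and Sohlh2 encode basic helix-loop-helix (bHLH) partners that promote the onset of differentiation, and Neurog3 encodes a bHLH factor of progenitors. Eomes and T (Brachyury) encode T-box factors best known from the early embryo and also found in stem cell-rich spermatogonia.

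The library held 970 barcodes and 11358045 UMIs, and 920 cells were kept after filters on genes, mitochondrial UMIs and doublets. Of these, 324 lay in 3 germ cell clusters with a median of 18216.5 UMIs per cell, and 596 lay in somatic clusters with a median of 8193.5. The germ cell clusters were named from Ddx4, Dazl, Tdrd1, Mael and Dnd1, none of them among the 8 genes. As a description of cells chosen by these markers, their levels in CPM (summed UMIs of the cells per 1000000 of their UMIs) were 17.7-fold (Dnd1) to 64.2-fold (Mael) higher in germ than in somatic cells. Germ cluster 0 had 190 cells, germ cluster 5 had 73 cells with Stra8 among its leading genes, and germ cluster 6 had 61 shallow cells with a median of 3996 UMIs.

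On GRCm38 (mm10), with GENCODE positions, Zbtb16 (ENSMUSG00000066687) lies on the minus strand of chromosome 9 from 48654297 to 48836222. Sox3 (ENSMUSG00000045179) is on the minus strand of the X chromosome from 60891366 to 60893430, and Sohlh1 (ENSMUSG00000059625) on the minus strand of chromosome 2 from 25842995 to 25847248. The plus strand holds Taf4b (ENSMUSG00000054321), Sohlh2 (ENSMUSG00000027794) on chromosome 3 from 55182028 to 55209957, Neurog3 (ENSMUSG00000044312) on chromosome 10 from 62133090 to 62134763, Eomes (ENSMUSG00000032446) on chromosome 9 from 118478212 to 118486132 and T (ENSMUSG00000062327) on chromosome 17 from 8434423 to 8442496. All are protein coding. Neurog3 overlaps Fam241b on the opposite strand, Eomes overlaps the antisense gene Gm33460, and Taf4b contains a processed pseudogene, AC133172.1, on its own strand, so reads of these pairs may not be separable. Whether the counting used strand is not given in the sources used here.

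bHLH factors bind E-boxes, written CANNTG, of which CACGTG is one form. The upstream bases of the bHLH pair Sohlh1 and Sohlh2 are shown because their transcripts had the same direction along the cell order below while their upstream windows differ in E-boxes. The sequences are from RefSeq (GRCm38.p6), read on the strand of the gene up to its start, with E-boxes in capitals; for Sohlh2 the bases inside the GENCODE gene were left out.
Sohlh1, chr2:25847249-25847498, minus strand: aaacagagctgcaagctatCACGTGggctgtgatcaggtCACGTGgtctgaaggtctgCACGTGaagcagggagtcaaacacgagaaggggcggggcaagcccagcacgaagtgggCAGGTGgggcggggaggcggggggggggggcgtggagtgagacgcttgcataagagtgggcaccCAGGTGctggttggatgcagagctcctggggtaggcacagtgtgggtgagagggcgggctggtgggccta
Sohlh2, chr3:55181794-55182027, plus strand: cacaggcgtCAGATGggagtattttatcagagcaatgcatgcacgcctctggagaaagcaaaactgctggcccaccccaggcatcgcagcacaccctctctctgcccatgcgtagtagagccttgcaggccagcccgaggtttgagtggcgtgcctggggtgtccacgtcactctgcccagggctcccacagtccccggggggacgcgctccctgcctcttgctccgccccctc
The 250 bases before Sohlh1 held 5 E-boxes, 3 of them CACGTG, which began 231, 211 and 192 bases before the start. In the 234 bases before Sohlh2 there was 1 E-box and no CACGTG. Of 32851 RefSeq upstream windows of 250 bases, searched on both strands, 66.2% held CANNTG, 6.02% held CACGTG and 20 windows (0.0609%) held at least 3 CACGTG. These matches describe letters only. Upstream sequences were matched for 5 of the 8 genes, and Zbtb16, Taf4b and Sox3 were not among them.

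The question put to these genes was how their transcripts are spread over germ cells that differ in Kit and Stra8, the genes that mark the start of differentiation. Germ cells were ordered by Kit plus Stra8 UMIs per 10,000 UMIs. In 140 cells (43.2%, interval 37.7 to 48.8%) neither gene had a UMI, and these are called Q0. The other 184 cells were divided into 4 equal groups of 46, Q1 to Q4, with 0.223 to 1.17 Kit plus Stra8 UMIs per 10,000 in Q1, 1.18 to 4.56 in Q2, 5.05 to 14.5 in Q3 and 14.7 to 47.2 in Q4. The order rests mainly on Stra8, which gave 1944 UMIs or 91.9% of the sum, against 171 for Kit. Depth moved with the order, since the median was 19409 UMIs per cell in Q0, 21521 in Q1, 16498 in Q2, 16372.5 in Q3 and 9064 in Q4. Q0 held 116 of the 190 cells of germ cluster 0, whereas Q4 held 8 cells of cluster 0, 21 of cluster 5 and 17 of cluster 6. The part of depth and of cluster make-up in the levels below was not tested.

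**Figure D1:**
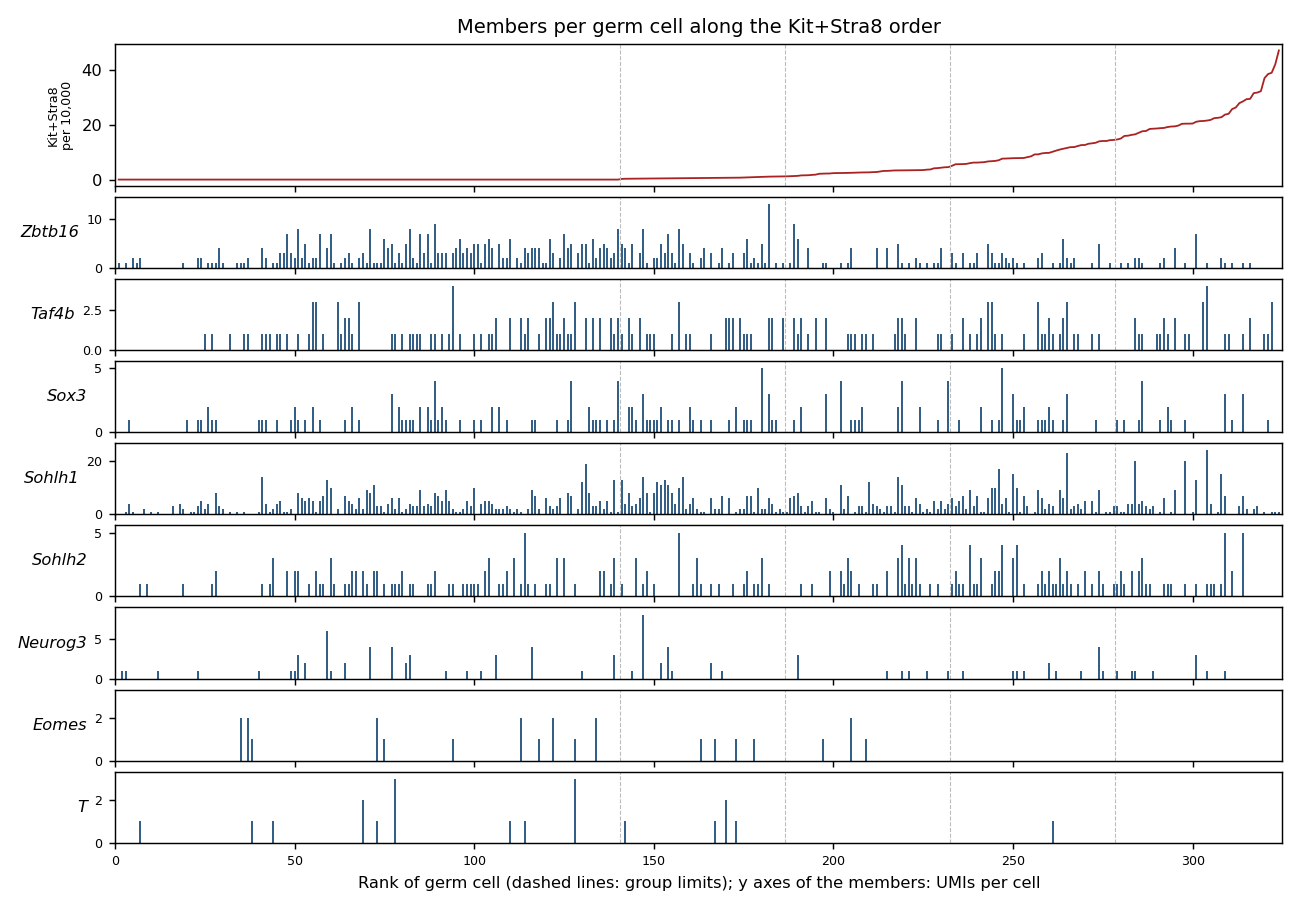
UMIs of each of the 8 genes (y axes) in the 324 germ cells, which stand on the x axis by rank of Kit plus Stra8 UMIs per 10,000 (top panel) and, within Q0, by depth; dashed lines are the limits of Q0 to Q4. Sohlh1 has UMIs in 274 cells all along the order, whereas Eomes has none in the cells of Q3 and Q4 and T has 1.

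Among the 6 genes with at least 20 UMIs over Q0 and Q4, Zbtb16 was the one at a higher level at the low Kit and Stra8 end beyond counting error. Its level was 138 CPM in Q0 (interval 124 to 153), 115 in Q1, 75.0 in Q2, 78.4 in Q3 and 52.5 in Q4 (35.1 to 75.4). Q0 and Q1 did not differ beyond counting error (ratio 1.2, interval 0.975 to 1.50). Q1 was above Q2 (1.53-fold, 1.10 to 2.15), and neither Q2 and Q3 nor Q3 and Q4 could be told apart. Over the whole order Zbtb16 was 2.63-fold higher in Q0 than in Q4 (1.80 to 3.98). With a mitochondrial limit of 5%, which kept 67 germ cells, this ratio went from 1.39 to 0.94 on the log2 scale, and its interval (-0.81 to 3.34) included no difference. It was the single gene of the 6 to be 2-fold or more higher in Q0, and 9.10% of the 9054 genes tested with the same minimum passed that fold. Its UMIs were found in 108 of 140 cells of Q0 (77.1%) and in 16 of 46 cells of Q4 (34.8%). The level in Q4 rested on few cells, since 5 of them held 17 of its 29 UMIs (58.6%). Each cell was then thinned to 5000 UMIs, with 15 cells of Q0 and 14 of Q4 too shallow for it. The shares of cells with a Zbtb16 UMI were 39.2% in Q0, 34.8% in Q1, 23.7% in Q2, 39.5% in Q3 and 9.38% in Q4. At equal depth Q4 was thus below Q0, whereas Q3 was not. By cluster, Zbtb16 stood at 136 CPM in germ cluster 0, 30.9 in cluster 5 and 74.6 in cluster 6, so that cluster 0 exceeded cluster 5 by 4.39-fold (3.16 to 6.27).

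The bHLH pair Sohlh1 and Sohlh2 had the opposite direction in CPM, with smaller differences. Sohlh1 was at 192 CPM in Q0 (175 to 210), 230 in Q1, 235 in Q2, 320 in Q3 and 313 in Q4 (268 to 363). The step from Q0 to Q1 (ratio of Q0 over Q1 0.833, 0.712 to 0.977) and that from Q2 to Q3 (0.733, 0.597 to 0.899) exceeded counting error, and the steps from Q1 to Q2 and from Q3 to Q4 did not. Sohlh2 was at 37.6 CPM in Q0 (30.4 to 45.9), 28.9 in Q1, 49.5 in Q2, 74.2 in Q3 and 61.5 in Q4 (42.6 to 86.0). Of its steps, that from Q1 to Q2 exceeded counting error (ratio of Q1 over Q2 0.583, 0.346 to 0.978). The ratio of Q0 over Q4 was 0.612 (0.514 to 0.733) for Sohlh1 and 0.610 (0.409 to 0.932) for Sohlh2. None of the 6 genes was 2-fold or more higher in Q4 than in Q0, a fold that 7.60% of the 9054 genes passed. Sohlh1 UMIs were found in 114 cells of Q0 (81.4%), 43 of Q1, 43 of Q2, 42 of Q3 and 32 of Q4 (69.6%); no order is read from shares at unequal depth. Thinned to 5000 UMIs the shares were 57.6% in Q0, 63.0% in Q1, 78.9% in Q2, 78.9% in Q3 and 56.25% in Q4, so at equal depth Q4 was not above Q0. The level of Sohlh1 in Q4 rested on few cells, since 5 of the 46 cells held 92 of its 173 UMIs (53.2%). For other genes the 5 cells with most UMIs in Q4 held 46.7% (Taf4b), 50.0% (Sohlh2), 65.0% (Sox3) and 77.8% (Neurog3). In the thinned counts the log2 ratio of Sohlh1, Q0 over Q4, was -0.31 (-0.85 to 0.26), against -0.71 in all UMIs. That interval includes no difference. The thinned ratio of Sohlh2 was -1.26 (-2.32 to -0.10). Sohlh1 also differed between clusters, with 354 CPM in germ cluster 6 (290 to 427) against 231 in cluster 0 and 209 in cluster 5.

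Taf4b, Sox3 and Neurog3 were spread over the order without a difference of the ends in CPM beyond counting error. Taf4b was at 35.2 CPM in Q0, 31.8 in Q1, 36.8 in Q2, 46.7 in Q3 and 54.3 in Q4. Its ratio of Q0 over Q4 was 0.648 (0.424 to 1.02), and with Q3 and Q4 pooled as the high end, a choice made after values were seen, it was 0.704 (0.505 to 0.986). Sox3 was at 28.9 CPM in Q0, 36.6 in Q1, 39.6 in Q2, 38.5 in Q3 and 36.2 in Q4, with a ratio of 0.797 (0.481 to 1.38). Neurog3 was at 19.0 CPM in Q0, 18.3 in Q1, 11.3 in Q2, 17.9 in Q3 and 16.3 in Q4, with a ratio of 1.17 (0.565 to 2.70). The intervals still allow Q0 to be up to 1.38-fold higher for Sox3 and 2.70-fold for Neurog3, or Q4 to be up to 2.08-fold and 1.77-fold higher. For none of these genes did neighbouring groups differ beyond counting error. By cluster, Neurog3 was 2.17-fold higher in germ cluster 0 than in cluster 5 (1.15 to 4.52), with a UMI in 17.9% and 13.7% of their cells. Sox3 was lower in cluster 0 than in cluster 5 (ratio 0.653, 0.475 to 0.908), as was Taf4b (0.726, 0.535 to 0.996). In the shallow cluster 6 Neurog3 was at 26.0 CPM (11.2 to 51.1), Sox3 at 16.2 (5.27 to 37.9) and Taf4b at 19.5 (7.14 to 42.4). The levels in cluster 0 were 19.4, 30.9 and 36.1 CPM.

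Eomes and T were rare and were found mainly in the groups with less Kit plus Stra8. Eomes had 25 UMIs in 18 germ cells, of which 11 cells were in Q0, 4 in Q1, 3 in Q2 and none in Q3 or Q4. T had 20 UMIs in 14 germ cells, 9 of them in Q0, 4 in Q1, none in Q2, 1 in Q3 and none in Q4. As shares of the cells of each group, Eomes was in 7.86% of Q0, 8.70% of Q1 and 6.52% of Q2. T was in 6.43% of Q0 and 8.70% of Q1. No order of Q0 and Q1 is read from these shares, since depth was unequal. In the thinned counts Eomes was in 4.8% of Q0 (6 cells) and 2.17% of Q1 (1 cell). T was then in 0.8% of Q0 and 2.17% of Q1, with 1 cell in each. In CPM neither gene differed between Q0 and Q1 beyond counting error. The ratios of Q0 over Q1 were 1.74 (0.569 to 7.13) for Eomes and 1.15 (0.391 to 4.08) for T. Both had fewer than 20 UMIs over Q0 and Q4 and so were not counted above. Between Q0 and Q4 alone neither differed beyond counting error, with 17 UMIs against 0 for Eomes and 14 against 0 for T (lower limits of the ratio 0.902 and 0.725). Q3 and Q4 were also pooled as the high end, a choice made after values were seen. Both genes were still under the minimum of 20 UMIs there. With the floor of 3 counts for a group at 0, Eomes was at least 2.87-fold higher in Q0 than in Q3 and Q4 together (exact lower limit 2.09). T was 7.08-fold higher in Q0 than in Q3 and Q4 together (1.08 to 300). These pooled ratios are descriptions and not tests. A count of 0 in the 46 cells of Q4 allows a share of up to 6.52% of cells with a UMI by the floor of 3 counts and 7.71% by the exact interval, so the absence of either gene there was not shown at this depth. Of the cells with a UMI, 17 of 18 for Eomes and 13 of 14 for T belonged to germ cluster 0.

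**Figure D2:**
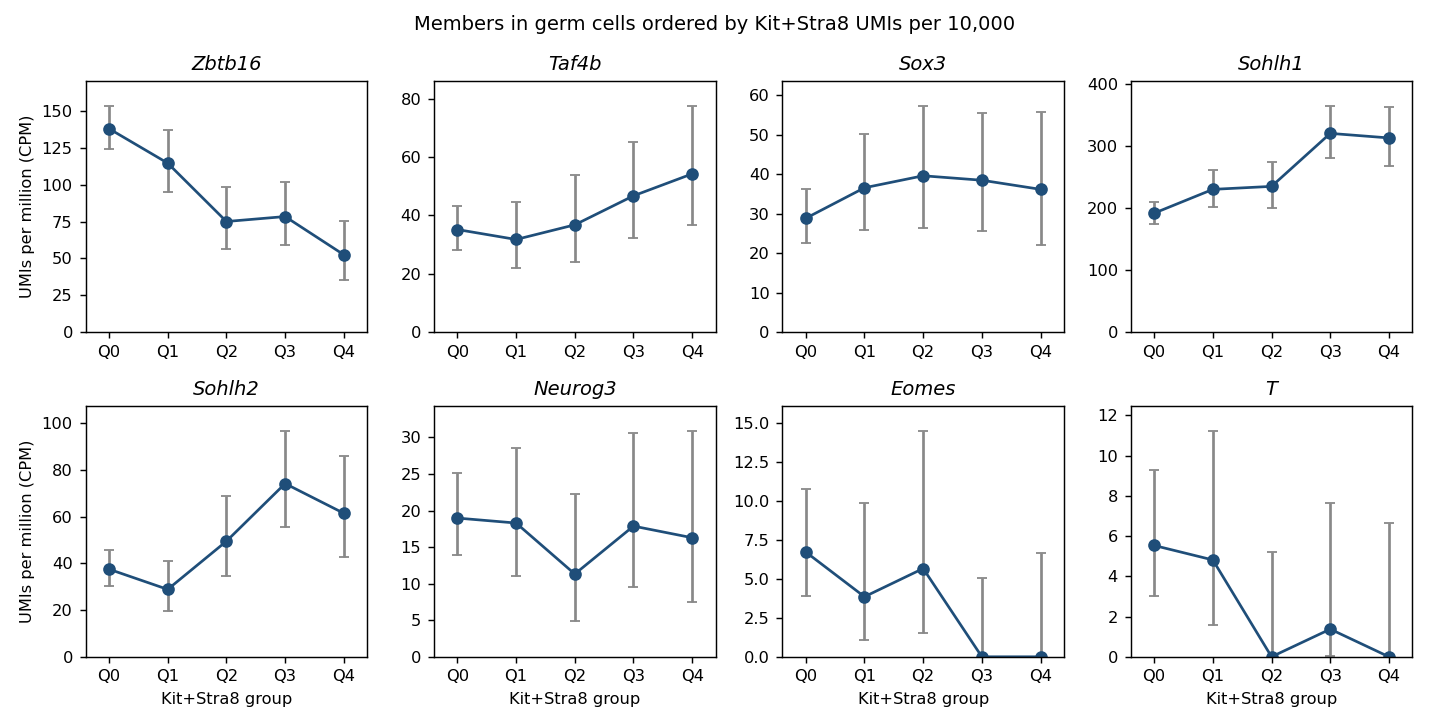
Level of each of the 8 genes (CPM, y axis from 0) in germ cells with no Kit or Stra8 UMI (Q0, 140 cells) and in the 4 groups Q1 to Q4 of 46 cells each with rising Kit plus Stra8 (x axis). Points are CPM of the summed UMIs and bars are exact 95% Poisson intervals; Zbtb16 goes from 138 to 52.5 CPM and Sohlh1 from 192 to 313.

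Across single cells, Spearman's rho between UMIs per 10,000 of each gene and Kit plus Stra8 was -0.34 for Zbtb16, 0.16 for Sohlh1 and 0.12 for Sohlh2. It was -0.13 for Eomes and -0.12 for T, and between -0.04 and 0.04 for Taf4b, Sox3 and Neurog3. These are descriptions over 324 cells of 1 library, in which depth itself had a rho of -0.25 with Kit plus Stra8.

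Other genes of the same pathway give a scale for these differences. Of 17 other regulators of undifferentiated spermatogonia, all had UMIs in germ cells and 16 had enough UMIs over Q0 and Q4, of which 10 were 2-fold or more higher in Q0 and 1, the retinoic acid receptor gene Rarg, was 2-fold or more higher in Q4. These folds were passed by 9.10% and 7.60% of the 9054 genes tested. The median log2 ratio of the 16 was 1.87, against -0.48 for the 6 measured among the 8 genes and -0.11 for all 9054 genes tested. The regulators with most UMIs were Egr4 (288 CPM in Q0 and 70.6 in Q4), an early growth response factor, the forkhead gene Foxo1 (109 and 59.7), the zinc finger gene Sall4 (79.5 and 94.1) and Pou5f1, which encodes OCT4 (90.9 and 28.9). Of 9 differentiation genes, 8 had enough UMIs and 5 were 2-fold or more higher in Q4, which include Kit and Stra8 by the way the order was made. Those with most UMIs were Uchl1 (627 CPM in Q0 and 925 in Q4), Ccnd2 (549 and 454), Stra8 itself and the synaptonemal complex gene Sycp3 (117 and 399.9). Dmrtb1, a factor of the transition from spermatogonia to meiosis, did not follow the order, at 15.4 CPM in Q0, 100.5 in Q2 and 14.5 in Q4.

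bHLH factors act as dimers with E proteins, which ID proteins hold back. Of 7 genes of these families, 5 had enough UMIs and 2, Tcf4 and Id4, were 2-fold or more higher in Q0, a fold passed by 9.10% of all genes tested. Id4 is also counted among the other regulators above. Tcf3 was at 119 CPM in Q0 and 114 in Q4, and Tcf12 at 42.7 and 57.9. Id3, at 13.0 CPM in germ cells, was at 292 in somatic cells, and Tcf4 at 30.8 against 131. TAF4B works within TFIID, and of 14 genes of its other subunits 11 had enough UMIs over Q0 and Q4 and 1, Taf12, was 2-fold or more higher in Q4. This is near the share of all genes past that fold (7.60%), so no trait of TFIID is read from it. Taf7 was at 325 CPM in Q0 and 279 in Q4, Taf10 at 83.0 and 104.9, Taf1 at 84.6 and 85.0, and Taf11 at 73.5 and 112. None of the 13 TFIID genes with enough UMIs was 10-fold higher in germ cells, a fold passed by 5.15% of 12989 genes. Taf4a, the general form of the subunit, was at 6.30 CPM in germ and 5.97 in somatic cells.

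Most of the 8 genes were far higher in germ cells than in the somatic cells of the same library, which served as background. At least 10-fold higher CPM in germ than in somatic cells was found for 6 of the 8 genes, a fold passed by 5.15% of 12989 genes. Zbtb16 was at 109 CPM in germ and 2.43 in somatic cells (45.0-fold, 26.1 to 85.1), and Sohlh1 at 233 and 5.41 (43.1-fold, 29.9 to 64.6). Sox3 was at 33.7 and 0.746 CPM (45.1-fold, 17.3 to 167), and Neurog3 at 17.5 and 0.560 (31.2-fold, 10.4 to 154). These ratios lie in the range of the germ cell markers. Sohlh2 had 248 UMIs in germ cells and 1 in somatic cells (239-fold, 42.5 to 9487). T had 20 UMIs in germ cells and 0 in somatic cells, so that it was at least 6.43-fold higher by the floor of 3 counts (exact lower limit 4.76).

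Taf4b and Eomes stood apart in this comparison. Taf4b was at 38.2 CPM in germ and 3.73 in somatic cells (10.2-fold, 6.46 to 17.1). Of its 20 somatic UMIs, 12 came from Sertoli-like cells, which support germ cells in the tubule and were 255 of the 596 somatic cells. Its level was 5.23 CPM in Sertoli-like cells (2.70 to 9.13) and 3.65 in stromal-like cells (1.34 to 7.95). These intervals overlap, so no Sertoli cell source is read from the count. Eomes was at 4.50 CPM in germ and 1.49 in somatic cells, 3.01-fold higher (1.32 to 7.73). Of its 8 somatic UMIs, 7 came from 3 cells of the 26 T cell-like cells, a level of 42.4 CPM (17.1 to 87.4) that exceeded that of the germ cells 9.42-fold (3.44 to 22.4). All 3 cells had a UMI of a T cell marker (Cd3d, Cd3e, Cd3g, Cd2 or Lck) and of Nkg7, Xcl1 or Gzmc, genes of cytotoxic lymphocytes chosen after the values were seen; over the cluster 13 cells and 10 cells had them. The cluster was mixed, since 10 of its 26 cells, none of them the 3 with Eomes, had a UMI of the pericyte gene Rgs5, and the 42.4 CPM are an average over all 26. The 3 cells together had 1 UMI of the 5 germ cell markers. EOMES is also known from cytotoxic lymphocytes. Without the T cell-like cells, a choice made after the values were seen, Eomes was 23.4-fold higher in germ cells (3.83 to 960) and Taf4b 9.91-fold, so that Eomes took the place of Taf4b among the 6 genes past 10-fold.

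**Figure D3:**
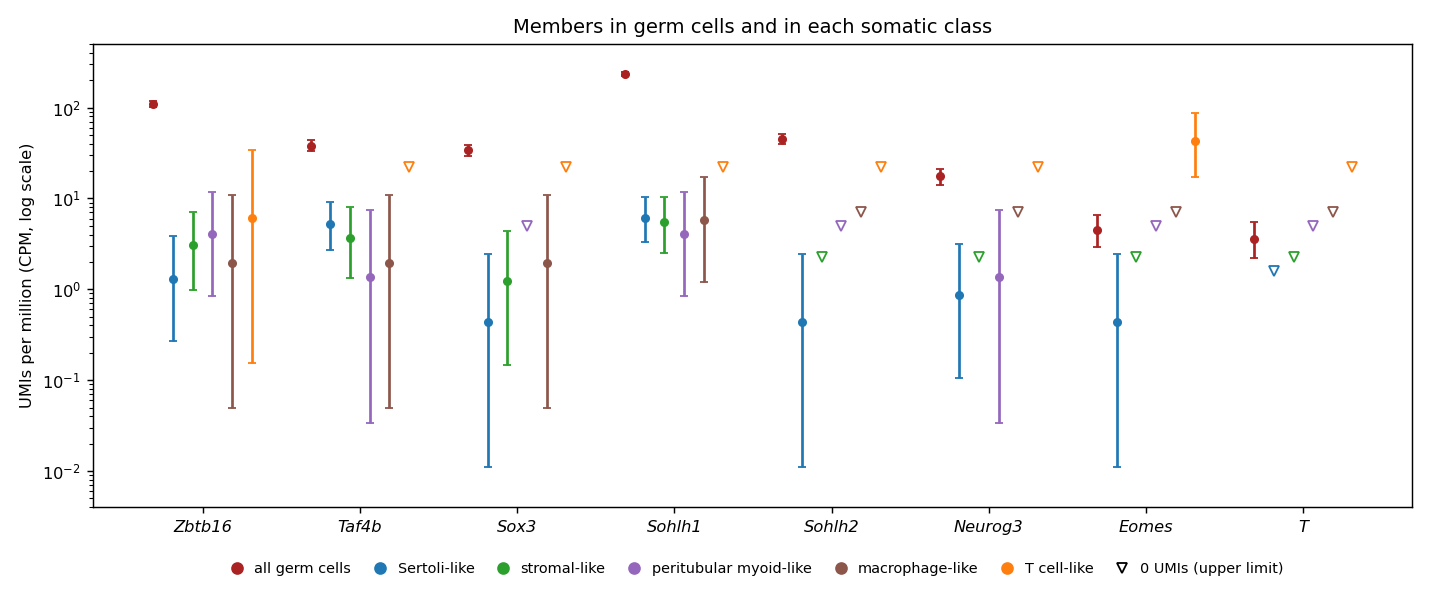
Level of each of the 8 genes (CPM, log axis) in 324 germ cells and in the somatic classes, with 26 T cell-like, 35 macrophage-like, 94 peritubular myoid-like, 186 stromal-like and 255 Sertoli-like cells. Points are CPM with exact 95% Poisson intervals and open triangles are the upper limits of classes with 0 UMIs; Eomes is the gene with a higher level in a somatic class, the T cell-like cells at 42.4 CPM.

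Shares of cells with a UMI carry the depth of each cell and are given with the same share in somatic cells. Zbtb16 was found in 206 of 324 germ cells (63.6%) and 13 of 596 somatic cells (2.18%). The pairs of shares were 43.8% and 3.36% for Taf4b, 36.4% and 0.503% for Sox3, 84.6% and 4.70% for Sohlh1, 46.3% and 0.168% for Sohlh2, and 16.0% and 0.503% for Neurog3. They were 5.56% and 0.671% for Eomes, and 4.32% of germ cells for T, whose count of 0 in somatic cells allows up to 0.503% by the floor of 3 counts and 0.617% by the exact interval. Thinned to 5000 UMIs, which left 279 germ and 548 somatic cells, the germ cell shares were 33.0% for Zbtb16, 16.1% for Taf4b, 13.3% for Sox3, 64.2% for Sohlh1, 21.5% for Sohlh2, 5.38% for Neurog3, 2.87% for Eomes and 1.08% for T. The somatic shares were then between 0% and 2.55%. At this equal depth the share of each gene was higher in germ than in somatic cells, which for T rested on 3 germ cells.

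In single germ cells the genes were found in combination. UMIs of 2 or more of the 8 genes were present in 266 of 324 germ cells (82.1%, 77.5 to 86.1%) and in 3 of 596 somatic cells (0.503%). Thinned to 5000 UMIs the share was 48.4% (42.4 to 54.4%). The most frequent number was 4 genes, in 83 cells, 10 cells had 6 genes and no cell had more. In 17 germ cells none was found, and their median depth was 4740 UMIs against 22153 in cells with 4 genes. Over the 28 pairs, the number of cells with both genes was compared with the product of their shares within 3 equal groups of cells by depth. The sum was 1337 observed against 1309 expected, a ratio of 1.02, with 14 pairs above and 14 below expectation.

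Among the 25 pairs with at least 5 cells expected, none departed from expectation beyond the Poisson interval of its count. A count of shared cells cannot exceed the number of cells with the rarer gene. In the pairs with Sohlh1, found in 274 cells, an excess could therefore not pass the interval, nor could one of Zbtb16 with Eomes or T. The Poisson interval leaves out this cap and is too wide where a gene is found in most cells. A deficit can stay inside it too, as for Sohlh1 and Eomes with 12 cells against 16.2 expected. Independence was thus not shown for such pairs. Sox3 and Neurog3, both genes of progenitors, had the highest ratio, with 28 cells observed and 21.8 expected (1.28, 0.854 to 1.86). They were followed by Taf4b and Sox3 with 71 and 61.1 cells (1.16, 0.908 to 1.47) and Sox3 and Sohlh2 with 68 and 62.1 (1.10, 0.851 to 1.39). The lowest ratios were those of the T-box genes, with Sox3 and T in 2 cells against 6.27 expected (0.319, 0.0386 to 1.15), Sox3 and Eomes in 4 against 7.91 (0.506, 0.138 to 1.30) and Sohlh1 and T in 9 against 12.6 (0.713, 0.326 to 1.35). The bHLH pair Sohlh1 and Sohlh2 was in 134 cells, against 132 expected and at most 150 possible.

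The 3 remaining pairs, with fewer cells expected, were those within Neurog3, Eomes and T. Eomes and T shared 5 cells against 0.981 expected (ratio 5.09, 1.65 to 11.9), which were 27.8% of the cells with Eomes and 35.7% of those with T. The ratio was 4.74 with the expectation within Q0 to Q4 and 4.30 within germ clusters. After thinning to 5000 UMIs no cell had both, with 0.086 expected, so the thinned counts cannot show whether the excess holds at equal depth. Neurog3 was not found in any cell with Eomes or T. There were 52 cells with Neurog3 and 27 with Eomes or T, with similar medians of 20026 and 19581 UMIs. The number of shared cells expected was 5 within the depth groups, 4.29 within Q0 to Q4 and 4.74 within germ clusters, and the exact 95% upper limit of a count of 0 is 3.69. For Eomes alone 3.35 and for T alone 2.60 shared cells were expected with Neurog3, both below that limit. The joint set of Eomes or T was not among the pairs planned, so its expected number above the limit is a description and not a test.

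**Figure D4:**
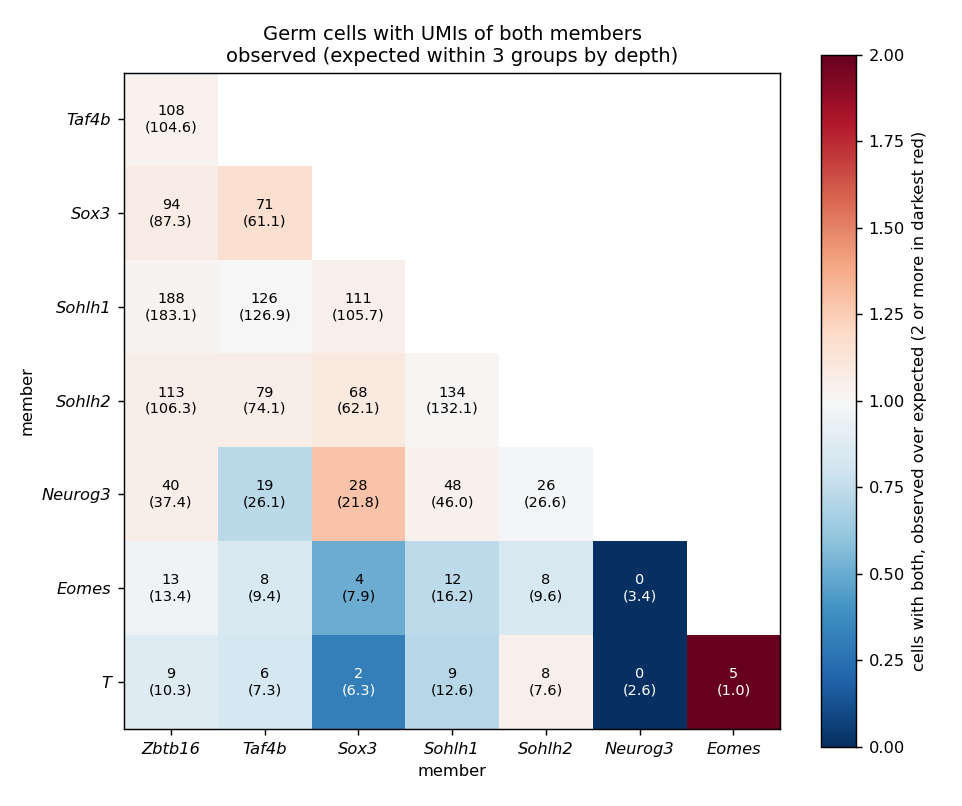
Number of the 324 germ cells with UMIs of both genes of each of the 28 pairs, with the number expected from their shares within 3 groups by depth in brackets. The colour is observed over expected, from 0 (blue) over 1 (white) to 2 or more (red); the pairs of Neurog3 with Eomes and T are at 0, and Eomes with T is at 5 against 1.0.

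The cells with Eomes or T and those with Neurog3 were then set side by side, a comparison chosen after the pairs had been seen. Of the 17 other regulators, 15 had at least 20 UMIs over both sets of cells. The 6 that were 2-fold or more higher with Eomes or T were Lhx1, Foxc2, Egr2, Etv5, Id4 and Bcl6b, a fold passed by 4.59% of 7165 genes tested. The 6 that were 2-fold or more higher with Neurog3 were Rarg, Nanos3, Lin28a, Egr4, Foxo1 and Utf1, a fold passed by 5.82%. The intervals of Bcl6b and Utf1 included 1. The 100 cells of Q0 with none of Neurog3, Eomes and T give another value, which was 51.4 CPM for Lhx1, 38.4 for Foxc2, 27.1 for Egr2, 46.8 for Etv5, 18.1 for Id4 and 26.5 for Bcl6b. Within Q0 as well, Lhx1 was at 146 CPM in cells with Eomes or T and had 0 UMIs in those with Neurog3. The levels in the same order were 58.2 and 7.24 CPM for Foxc2, 52.4 and 9.65 for Egr2, and 107.7 and 14.5 for Etv5. They were 37.9 and 7.24 CPM for Id4 and 32.0 and 14.5 for Bcl6b. For all 6 genes the value of the 100 cells thus lay between the 2 sets of cells of Q0. Whether it differed from either set beyond counting error was not tested.

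Lhx1, a LIM homeobox gene that responds to the growth factor GDNF, was at 101 CPM in cells with Eomes or T and 4.02 in those with Neurog3 (25.2-fold, 9.32 to 95.9). It had a UMI in 16 of 27 cells of the former and 3 of 52 of the latter. Foxc2, a forkhead gene, was at 53.5 and 6.02 CPM (8.88-fold, 3.62 to 26.1), and Id4, an inhibitor of bHLH factors that marks stem cell-rich spermatogonia, at 36.9 and 7.03 (5.25-fold, 2.13 to 14.7). Gfra1 and Ret, which encode the GDNF receptor and were not on the list, were at 92.2 and 21.1 CPM and at 92.2 and 30.1 CPM. In the other direction Nanos3, an RNA-binding factor, was at 29.5 and 101 CPM (0.291, 0.160 to 0.496), and Lin28a, which blocks let-7 maturation, at 29.5 and 93.4 (0.316, 0.173 to 0.540).

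The other members of the 8 genes differed between these cells too. Sohlh1 was at 64.5 CPM with Eomes or T and 345 with Neurog3 (0.187, 0.128 to 0.265), and Sox3 at 11.1 and 47.2 (0.234, 0.0819 to 0.549). Zbtb16 was at 99.6 and 152 CPM (0.657, 0.472 to 0.902). Sohlh2, at 42.4 and 50.2 CPM (0.845, 0.492 to 1.41), and Taf4b, at 42.4 and 28.1 (1.51, 0.830 to 2.72), did not differ beyond counting error. The bHLH partners Sohlh1 and Sohlh2 thus had unlike ratios, and their intervals did not overlap.

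Kit and Stra8 moved with this comparison, at 9.22 and 64.5 CPM with Eomes or T against 44.2 and 439 with Neurog3. The same ratios were therefore taken within Q0 alone, where 17 cells had Eomes or T and 23 had Neurog3. There Sohlh1 was at 64.1 against 302 CPM (0.212, 0.128 to 0.336), and Sox3 had 1 UMI against 17 (0.0710, 0.00170 to 0.453). Zbtb16 was at 116 against 193 CPM (0.603, 0.402 to 0.893) and Sohlh2 at 52.4 against 33.8 (1.55, 0.729 to 3.37). Taf4b, at 52.4 against 21.7 CPM (2.41, 1.03 to 6.10), differed beyond counting error within Q0, unlike over all of these cells. Lhx1 had 50 UMIs against 0, at least 20.1-fold higher with Eomes or T by the floor of 3 counts (exact lower limit 15.8). Within germ cluster 0 the ratio of Sohlh1 was 0.186 (0.126 to 0.267) and that of Lhx1 26.3 (8.54 to 131).

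**Figure D5:**
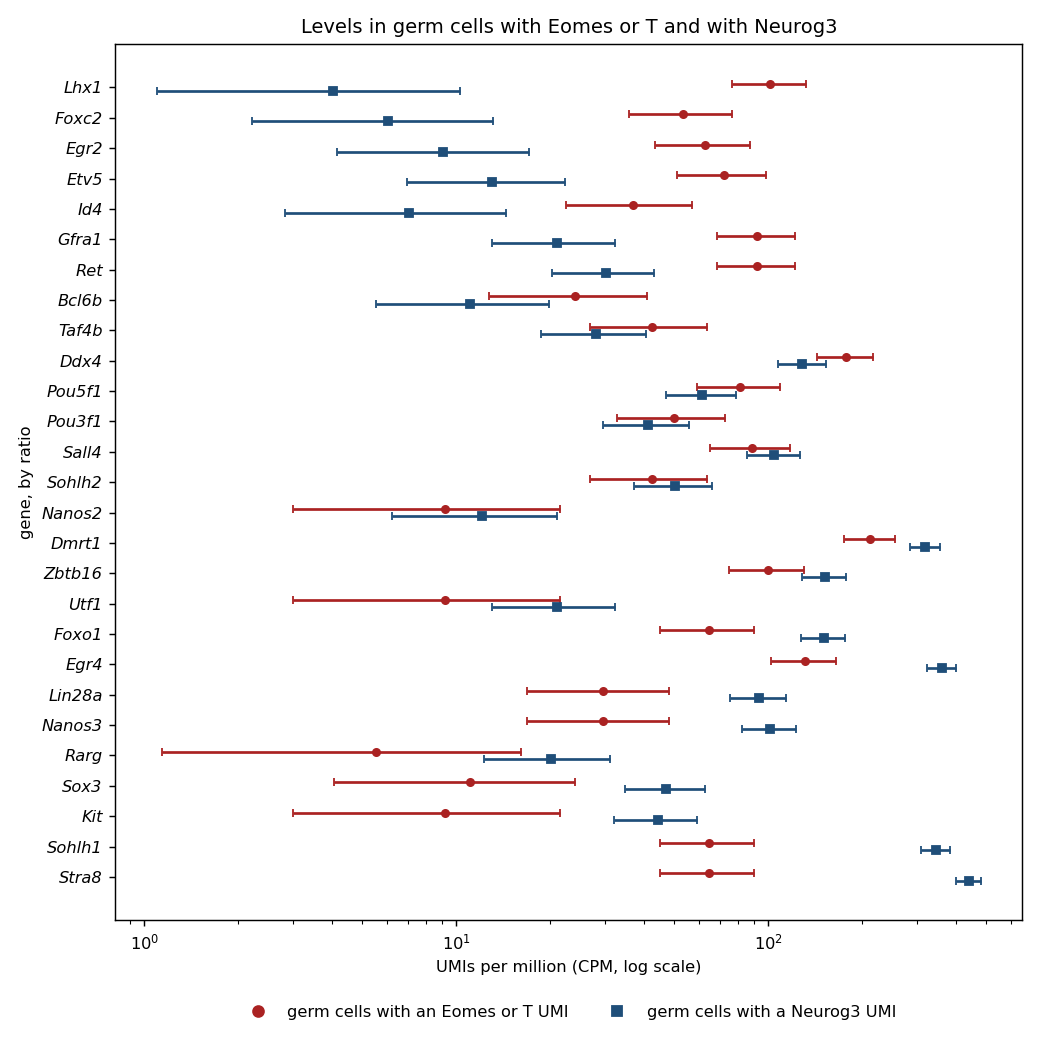
Levels (CPM, log axis) of other regulators (Pax7 left out), of Zbtb16, Taf4b, Sox3, Sohlh1 and Sohlh2, and of Gfra1, Ret, Kit, Stra8, Dmrt1 and Ddx4, in the 27 germ cells with an Eomes or T UMI (red) and the 52 with a Neurog3 UMI (blue), with exact 95% Poisson intervals. Genes stand in the order of their ratio, from Lhx1 at 101 against 4.02 CPM down to Sohlh1 at 64.5 against 345 and Stra8.

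The genes whose pattern over germ cells was most like each of the 8 were sought among 5794 genes detected in 25% or more of germ cells, by Pearson's r of ln(1 + UMIs per 10,000) over the 324 cells, for the 5 genes with at least 100 UMIs. For Zbtb16 they were Sdc4 (0.50), Egr4 (0.47) and Serf1 (0.41), and for Sohlh1 they were Uchl1 (0.43), 9130401M01Rik (0.38) and Park7 (0.34). Sox3 came closest to N4bp2 (0.38), Phc1 (0.32) and Ptprf (0.31), and Taf4b to Zdhhc6 (0.35), Rsf1 (0.33) and Adarb1 (0.32). Sohlh2 had the weakest likeness, with Aifm3 (0.27), Ttll7 (0.26) and Zfp410 (0.26). The cells share a library and their depth, and r with ln depth was 0.28 for Zbtb16, 0.22 for Taf4b, 0.18 for Sox3, 0.01 for Sohlh1 and 0.03 for Sohlh2.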

How the data were processed

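The authors demultiplexed and aligned the reads (10x v2 chemistry) with Cell Ranger 2.1.0 against mm10 transcripts and deposited UMI counts per gene and barcode without normalization. Levels are compared between cells and not between genes, and no correction for gene length was made. The filters asked for 500 genes or more, a mitochondrial share below 10% and no scrublet call (scanpy 1.11.5, expected doublet rate 0.01, seed 0); of 970 barcodes 10, 36 and 4 failed these filters. Barcodes held 2655 to 44915 UMIs. Cells were clustered with Seurat 5.3.0 in R 4.3.3 (mean.var.plot variable genes, 14 principal components, resolution 0.5), with the 8 genes, Kit and Stra8 left out of the variable genes, and clusters were named from the mean log-normalized expression of marker lists, at least 3 of which had to be found in 10% of the cells. No endothelial-like, Leydig-like or red blood cell-like cluster was named.

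CPM, ratios (with conditional binomial intervals) and shares (Clopper-Pearson) are from summed UMIs at a 95% level and cover counting error only; a group at 0 was set to a floor of 3 counts in ratios. A fold was counted with at least 20 UMIs over both groups, at 2 along the order and 10 against somatic cells. The intervals, folds and expected pairs were run on simulated counts that follow the counting error and independence they assume. That run cannot show how they behave where UMIs are unevenly spread over cells, as here. All 8 genes are named, as are per gene list the 4 with most UMIs, per gene the 3 most correlated genes and, among pairs with at least 5 cells expected, the 3 highest and lowest; other genes named were chosen after their values were seen. The genes, the gene lists and the marker lists were chosen with earlier results of these data known. Alternatives covered the filters, clustering, germ cell selection, order, depth and expectation (18 planned, 3 added after seeing the data).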

Additional observations from a re-analysis of the deposited data

How the results depend on the processing

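No paired analysis was possible because the 3 mice were pooled into a single library, and no replicate could be left out. A mitochondrial limit of 5% kept 67 germ cells, 27 of them with no Kit or Stra8 UMI; then 0 of the 8 genes were 2-fold higher at the low end and 1 at the high end, 4 instead of 6 were 10-fold higher in germ cells, and 49.3% of germ cells had 2 or more of the genes. That share was 87.1% in cells with at least 5000 UMIs, 76.2% when germ cells were taken by 2 or more marker UMIs and 48.4% after thinning to 5000 UMIs, which left 4 genes 10-fold higher in germ cells and put 1 gene 2-fold higher at the high end. Ordered by Kit alone, 240 cells had no UMI and 1 gene was 2-fold higher at the high end. Thinning also left 0 cells with both Eomes and T, so that their ratio went from 5.09 to 0. Only 0.086 such cells were expected after thinning, so this 0 cannot show whether the excess holds at equal depth. The cause of these moves was not tested, apart from thinning and stricter filters, which leave fewer UMIs or cells by construction. The log2 ratio of Zbtb16 at the low over the high end was between 0.94 and 2.96, and that of Sohlh1 between -1.19 and -0.31, over 18 alternatives; the interval included 0 for Zbtb16 at the 5% limit (-0.81 to 3.34) and for Sohlh1 after thinning (-0.85 to 0.26). The log2 ratio of Neurog3 lay between -0.42 and 0.31 and that of Sox3 between -0.85 and 0.03, so neither kept its direction. For Taf4b it lay between -0.92 and -0.34 over 17 alternatives, so the direction was kept, while the interval in all UMIs included no difference. The ratio of Eomes in germ over somatic cells, 1.59 on the log2 scale, was 4.55 without the T cell-like cells and 4.90 in cells with at least 5000 UMIs. Rare genes are limited by depth, since Eomes and T had 25 and 20 UMIs in germ cells.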
